A study of Mus musculus with 2 samples.

Results

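Igfbp2-high contractile smooth muscle cells were 376 of the 7358 cells in the 2 libraries, 268 of 4397 with GLPG0187 treatment and 108 of 2961 with vehicle. They were chosen by deposited values in each cell: Myh11 of at least 20, Igfbp2 of at least 5, Tnnt2 below 2, C1qa, C1qb and C1qc together below 5, and Pecam1 and Cdh5 together below 2. The first value marks contractile smooth muscle, and the last 3 keep out Tnnt2-positive smooth muscle, macrophages and endothelium. Because measured values chose the cells, the levels of these 8 genes are descriptions of the choice.

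Both libraries came from mice with the Fbn1C1041G/+ genotype, a fibrillin-1 missense model of Marfan syndrome, and no wild-type library was analysed here. One pool received GLPG0187, an inhibitor of alpha-v integrins, and the other vehicle, daily from 6 to 16 weeks of age, when the aortic root and ascending aorta were taken. Each pool joined several males and females, in equal numbers per the labels' protocols, and the number of animals was not given in the sources used here. With 1 library per treatment there is no replicate, so differences between treatments, and between groups of cells, are given as sizes without a test. Intervals of shares are exact Clopper-Pearson 95% intervals and cover counting error only.

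IGFBP2 is a secreted protein that binds insulin-like growth factors and limits their access to the receptor, and it also carries an RGD motif that integrins can bind. Contractile smooth muscle cells of the aortic media make the actin and myosin apparatus together with elastic fibres. In diseased aortas some of them lower these genes and raise matrix genes such as fibronectin and osteoprotegerin, a change called modulation.

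The Igfbp2-high cells held contractile smooth muscle genes at the level of the other Myh11-positive cells. Mean Acta2, the smooth muscle actin gene, was 375 with GLPG0187 and 347 with vehicle (the order of paired values throughout), against 307 and 304 in all other cells with Myh11 of at least 20 (1248 and 501 cells). Tagln, which encodes transgelin, averaged 290 and 279 against 252 and 251. Cnn1, which encodes calponin, averaged 26.3 and 21.1 against 24.9 and 22.8. Among markers of other cell types, 6 macrophage markers outside the rule summed to a mean of 0.183 and 0.213 per cell. The 3 B cell markers were at 0 in both libraries. Timp4 and Nrgn, listed as markers of Tnnt2-positive smooth muscle, summed to 1.23 and 1.90. The other Myh11-positive cells had 0.617 and 0.810. Nrgn alone averaged 0.791 and 1.40 in the Igfbp2-high cells and 0.226 and 0.412 in Myh11-positive cells with Tnnt2 of at least 2. Nrgn therefore did not mark Tnnt2-positive cells here. The 5 endothelial markers outside the rule summed to 0.604 and 0.565 against 0.576 and 0.525. In those of the other cells that met the 3 exclusions they summed to 0.425 and 0.416. The 5 Schwann and pigment markers summed to 0.063 and 1.81 against 0.036 and 0.034. In the vehicle library 1 cell held a value of 186 for Dct, which is 1 of these markers. The 10 fibroblast markers summed to 18.6 and 14.4, below the 24.8 and 20.4 of the other Myh11-positive cells. No barcode among the 5 that the libraries shared belonged to an Igfbp2-high cell, and a doublet caller marked 2 and 0 Igfbp2-high cells.

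Igfbp2 itself had a median of 15 (range 5 to 258) with GLPG0187 and 14 (range 5 to 117) with vehicle. Its mean was 22.8 and 21.3, so the cells chosen carried a like amount in both libraries. It was above 0 in 40.2% and 39.1% of the other Myh11-positive cells. In cells that should lack the gene, the macrophage gate, the share above 0 was 13.01% and 4.88%, with medians of 3179.5 and 3032.5 genes detected per cell against 4213.5 and 4291.5 in the Igfbp2-high cells. No cell of the macrophage or endothelial gates reached 5.

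The Igfbp2 gene lies on chromosome 1 of GRCm38 at 72824503 to 72852474 on the plus strand. Igfbp5, another IGF binding protein gene, lies on the minus strand, with its nearer end 5458 bases beyond the end of Igfbp2. The 250 bases before the RefSeq start of Igfbp2 (chr1:72824230-72824479, plus strand, GRCm38.p6) are shown because this gene defines the cells, with GC boxes (GGGCGG on either strand) in capitals. The same stretch of Ankrd1 (chr19:36119845-36120094, minus strand) is shown because it was the 1 gene of the TGF-beta and YAP response list to be higher in both libraries. Its capitals mark the MCAT element CATTCC or its reverse complement, the letters that TEAD factors, the DNA-binding partners of YAP, recognise.
Igfbp2: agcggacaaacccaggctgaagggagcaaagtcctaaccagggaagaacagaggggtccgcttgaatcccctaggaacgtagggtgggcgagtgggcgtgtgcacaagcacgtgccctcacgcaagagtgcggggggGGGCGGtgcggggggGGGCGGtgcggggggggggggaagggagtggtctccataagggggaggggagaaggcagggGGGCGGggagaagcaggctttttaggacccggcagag
Ankrd1: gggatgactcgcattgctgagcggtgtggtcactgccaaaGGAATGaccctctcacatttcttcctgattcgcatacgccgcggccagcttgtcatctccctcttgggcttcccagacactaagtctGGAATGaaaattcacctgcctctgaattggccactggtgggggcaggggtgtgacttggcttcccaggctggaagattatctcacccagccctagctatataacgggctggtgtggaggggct
The Igfbp2 stretch held 3 GC boxes, beginning 113, 98 and 37 bases before the start, and 67.2% of its bases were G or C. The Ankrd1 stretch held 2 MCAT matches, beginning 210 and 123 bases before the start. A GC box was found in 32.9% and an MCAT element in 12.6% of the first-listed windows of 27025 genes. Of the 24 genes named below as higher in the Igfbp2-high cells, 18 had a window; 8 of these held a GC box and 3 an MCAT element (Ankrd1, Diras2 and Nrgn). The AP-1 letters TGANTCA were in 3 of the 18 against 6.87% of all windows, and TATAAA was in 0 of the 18 against 12.97%. Matches were counted without regard to overlap between motifs, and they describe letters only.

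The share of Igfbp2-high cells among Myh11-positive cells did not separate the treatments. It was 17.7% with GLPG0187 (268 of 1516 cells, interval 15.8 to 19.7) and 17.7% with vehicle (108 of 609, interval 14.8 to 21.0). The difference, GLPG0187 minus vehicle, was -0.0559 percentage points, with an interval of -3.83 to 3.52 made from both exact intervals. Over all cells the shares were 6.10% and 3.65%, a difference of 2.45 points (1.44 to 3.44). Myh11-positive cells were 1516 of 4397 and 609 of 2961, so the libraries differed in how many contractile cells they held.

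Igfbp2-high cells were more often male in both libraries. A cell with Xist but none of Ddx3y, Uty, Kdm5d and Eif2s3y was counted as Xist-only, and the converse as Y-only. In the GLPG0187 library 9.20% of the Xist-only Myh11-positive cells (38 of 413, interval 6.59 to 12.4) were Igfbp2-high, against 21.4% of the Y-only cells (208 of 970, interval 18.9 to 24.2). With vehicle the shares were 10.5% (19 of 181, interval 6.44 to 15.9) and 22.1% (84 of 380, interval 18.03 to 26.6). The difference was 12.2 points (8.15 to 16.0) and 11.6 points (4.84 to 17.7), or 2.33-fold and 2.11-fold. The intervals do not overlap within either library, and each sex had a like share in both.

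The same skew held at other Igfbp2 values, an addition made after the data were seen. With a minimum of 3 the shares were 12.8% of Xist-only and 26.8% of Y-only cells in the GLPG0187 library, and 14.4% and 27.6% in the vehicle library. With a minimum of 10 they were 4.12% and 15.8%, and 4.97% and 16.3%. Among all Myh11-positive cells that met the 3 exclusions, Xist-only cells had a mean Igfbp2 of 2.28 and Y-only cells one of 8.79 with GLPG0187, against 2.20 and 8.28 with vehicle. Y-only cells were 56.5% and 58.0% of the sexed cells at an Igfbp2 of 0, and 97.0% and 100% at 40 or more.

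**Figure D1:**
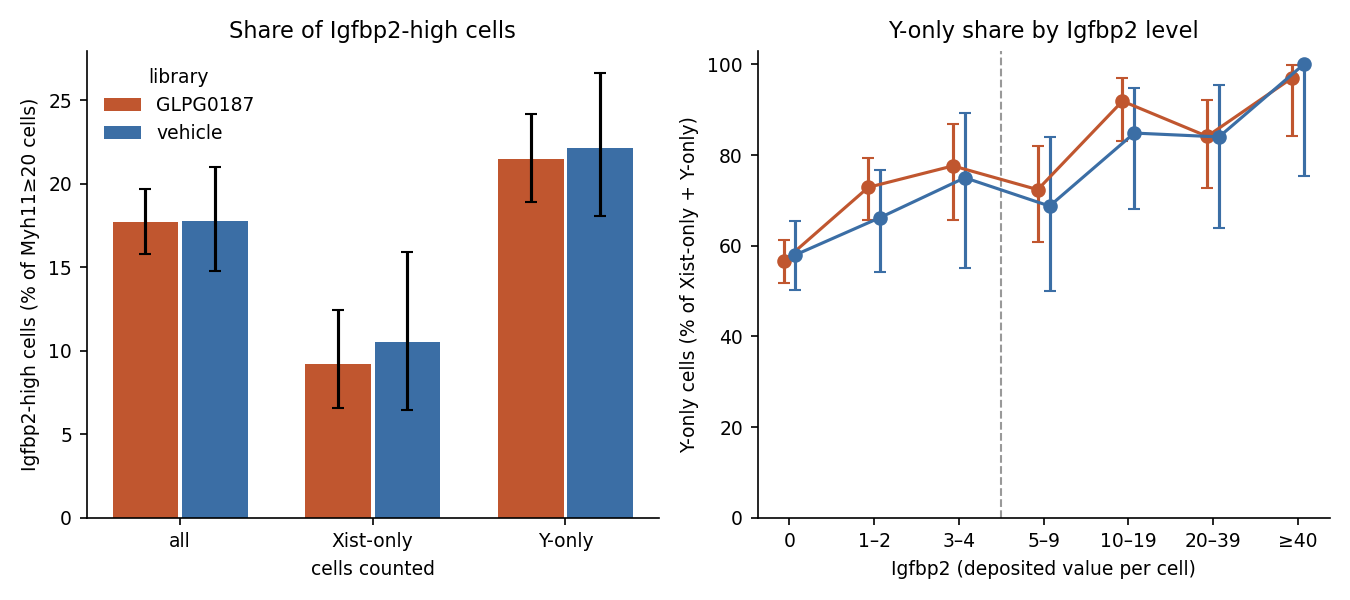
Left, Igfbp2-high cells as a percentage of Myh11-positive cells in each library, over all cells and over Xist-only and Y-only cells, with exact 95% intervals. Right, the percentage of Y-only cells by deposited Igfbp2 value (dashed line, the minimum of 5): it is 56.5% and 58.0% at 0 and 97.0% and 100% at 40 or more.

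The skew was greater than that of the whole libraries and of the other Myh11-positive cells. Y-only cells were 84.6% and 81.6% of the sexed Igfbp2-high cells, 67.0% and 64.6% of the other Myh11-positive cells, and 70.2% and 63.7% of all cells. Tnnt2-positive cells with the same Myh11 minimum were 74.3% and 70.2% Y-only, and Rbp4-positive ones 64.6% and 69.6%. The interval of the Igfbp2-high cells (79.4 to 88.8 and 72.7 to 88.5) overlapped those of the Tnnt2-positive cells (69.9 to 78.3 and 62.9 to 76.8) and of the Rbp4-positive cells (60.9 to 68.2 and 63.5 to 75.2) in the vehicle library only. Median genes detected were close in the 2 sexes among cells that met the exclusions, 3972 in Xist-only against 4159 in Y-only cells (GLPG0187) and 4195.5 against 4272 (vehicle). The animals behind each sex could not be told apart, so the difference between sexes has no replicate over animals.

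Across genes, a small set separated the Igfbp2-high cells from the other Myh11-positive cells. For each gene the summed value was divided by the group's total, and the log2 ratio was taken within each library. Of 9618 genes with a sum of at least 50 in both libraries, 80 were at least 1.5-fold higher in both (0.832%) and 143 at least 1.5-fold lower in both (1.49%). The median log2 ratio over these genes was 0.01 and -0.00. Because the other cells include those with Tnnt2, C1q or endothelial genes, a closer comparison used only cells with Igfbp2 below 5 that met the same exclusions, called Igfbp2-low cells here (730 and 293 cells). Against them 61 of 8714 genes were higher (0.700%) and 69 lower (0.792%). Of the 80 genes higher against all others, 39 were also higher against the Igfbp2-low cells (48.8% of the first list and 63.9% of the second), and of the 143 lower ones 56 were (39.2% and 81.2%).

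The fibronectin gene was among those that were higher. Fn1, the gene of the matrix protein fibronectin, averaged 21.0 and 22.3, against 7.87 and 9.16 in the other Myh11-positive cells and 8.08 and 9.23 in the Igfbp2-low cells. Its median was 16 in the Igfbp2-high cells of both libraries, and 5 and 4 in the others. The log2 ratio was 1.39 and 1.27 over all others and 1.35 and 1.25 over the Igfbp2-low cells. Fn1 was high in both libraries and by about the same amount against either comparison. Cells with Myh11 of 5 to 19 had a mean Fn1 of 13.3 and 19.3, so a raised level was not confined to the Igfbp2-high cells. The Fn1 gene lies 1171303 bases before Igfbp2 on chromosome 1 (71585520 to 71653200, minus strand).

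Of the 24 named genes, ranked by the smaller ratio of the libraries, Ttc9 came first. Ttc9, a tetratricopeptide repeat gene, stood at 2.37 and 2.10 and was detected in 11.6% and 19.4% of the Igfbp2-high cells. Its mean was 0.201 and 0.380 in these cells, against 1.26 and 0.369 in cells of the endothelial gate.

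Ankrd1, an ankyrin repeat gene of stretched muscle and a YAP target, averaged 1.91 and 3.45 against 0.923 and 1.47 in the others. The log2 ratio was 1.03 and 1.22 over all others and 1.81 and 1.96 over the Igfbp2-low cells. In Xist-only cells of the GLPG0187 library (38 Igfbp2-high cells) its ratio was -1.61. Cells with Tnnt2 of at least 2 and the same Igfbp2 and Myh11 minimums had a higher mean Ankrd1, 2.78 and 4.40. In those cells Nrgn averaged 0.509 and 1.45 and Ttc9 0.160 and 0.429. Cells with Myh11 of 5 to 19 averaged 1.06 and 2.275 for Nrgn and 0.220 and 0.415 for Ttc9. These levels were therefore not confined to the Igfbp2-high cells.

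Genes of secreted signals were also among those named. Ereg and Btc encode ligands of the EGF receptor family: Ereg averaged 0.638 and 0.843 against 0.275 and 0.427, and Btc 0.160 and 0.148 against 0.0905 and 0.0798. Sema3e, a secreted semaphorin, averaged 0.332 and 0.241 against 0.139 and 0.0918. Mia, a small secreted protein of cartilage and melanoma, had log2 ratios of 1.18 and 1.26, which were 0.63 and 0.69 over the Igfbp2-low cells. Fam19a1, a secreted chemokine-like protein, was detected in 42.9% of the Igfbp2-high cells of the GLPG0187 library against 22.8% of the others, with log2 ratios of 1.04 and 0.88. Over the Igfbp2-low cells 21 of the 24 named genes kept a 1.5-fold difference in both libraries. Fam19a1 (0.79 and 0.50), Btc (0.42 and 0.85) and Bdh1 (0.53 and 0.53) did not.

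The remaining named genes had other roles. P2rx1, an ATP-gated cation channel of smooth muscle, had log2 ratios of 1.22 and 1.76, and Plaur, the urokinase receptor, 0.81 and 1.31. Nrgn, a calmodulin-binding protein, averaged 0.791 and 1.40 against 0.286 and 0.529. Dgkg, a diacylglycerol kinase, had ratios of 1.38 and 1.44, and Diras2, a small GTPase, 1.52 and 1.30. Vwa1, a matrix protein of basement membranes, had ratios of 0.85 and 0.91. The other named genes were Gcnt4, Myzap, Mlph, Prrx2, Arc, Sel1l3, Ppp1r3c, Lrrc39, Slc41a2 and Bdh1, with log2 ratios of 0.80 to 1.76.

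These genes were chosen on the same cells, some through detection in the Igfbp2-high cells alone, so their recurrence in subsets of those cells is a description. In Xist-only cells of the vehicle library (19 Igfbp2-high cells) Arc was at -0.79 and Bdh1 at -2.59.

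**Figure D2:**
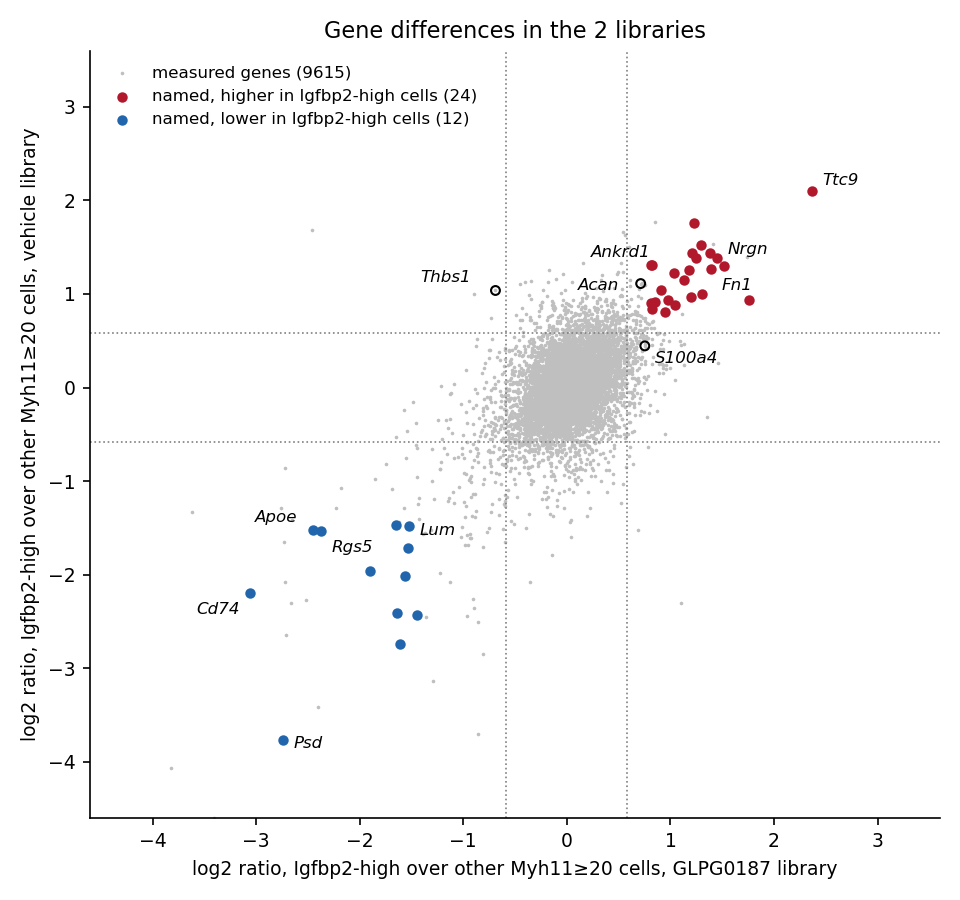
Log2 ratio of Igfbp2-high over other Myh11-positive cells for 9614 genes, GLPG0187 library (x) against vehicle library (y), dotted lines at 1.5-fold, with 1 more gene outside the axes. Named higher genes (red) lie in the upper right and named lower genes (blue) in the lower left, while Thbs1 (open circle) lies at -0.69 and 1.04.

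The 4 markers given with Igfbp2 for these cells differed less than Fn1. Acan, the gene of the cartilage proteoglycan aggrecan, averaged 1.42 and 2.54 against 0.856 and 1.16 in all others, a log2 ratio of 0.71 and 1.11. Cd109, a TGF-beta co-receptor, averaged 1.21 and 1.06 against 0.692 and 0.653, a ratio of 0.79 and 0.68. Lgals3, which encodes galectin-3, averaged 1.63 and 1.11 against 0.940 and 0.707, a ratio of 0.78 and 0.64. In the vehicle library 1 Igfbp2-high cell held 34.2% of the summed Lgals3, and without the highest cell of each group the ratio was 0.13. S100a4, a calcium-binding protein, averaged 10.5 and 9.07 against 6.12 and 6.59, a ratio of 0.75 and 0.44, so it was not counted. In cells with Myh11 of 5 to 19 S100a4 averaged 8.87 and 10.2, while Acan, Lgals3 and Cd109 averaged less than in the Igfbp2-high cells. Lgals3 averaged 19.5 and 15.0 in cells of the macrophage gate.

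Against the Igfbp2-low cells, 0 of these 4 markers were 1.5-fold higher in both libraries, where 0.700% of all genes were. At that background a count of 0 of 4 is no result about the markers. Acan stood at 0.48 and 0.74, Lgals3 at 0.63 and 0.52, Cd109 at 0.56 and 0.36, and S100a4 at 0.58 and 0.31. At least 3 of the 4 were detected together in 59.7% of the Igfbp2-high cells of the GLPG0187 library (interval 53.6 to 65.6) and in 39.3% of its Igfbp2-low cells (35.8 to 43.0). With vehicle the shares were 57.4% (47.5 to 66.9) and 41.6% (35.9 to 47.5). Within the Igfbp2-high cells, the Spearman correlation of Acan with Igfbp2 over cells was -0.09 and 0.03 (268 and 108 cells), and that of Fn1 was 0.28 and 0.30. Cells of 1 library share their pool and preparation, so these values are descriptions.

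Around the minimum of 5 the genes differed in course. In the GLPG0187 library mean Fn1 was 12.9 in the 73 cells with an Igfbp2 of 3 to 4 and 17.3 in the 44 cells with 5 to 6. With vehicle it was 16.4 in 28 cells and 11.4 in 16 cells. Acan averaged 1.66 just below and 2.02 just above in the GLPG0187 library, and 2.43 and 2.38 in the vehicle library. Cdkn1a, the p21 gene, was 0.973 just below and 0.386 just above with GLPG0187, and 2.43 and 0.938 with vehicle. Ankrd1 went from 1.55 to 2.07 and from 1.32 to 2.5 over the same values. From an Igfbp2 of 0 to 20 to 39, Fn1 went from 6.87 to 25.7 and from 6.72 to 27.6, and at 40 or more it was 26.8 and 23.3.

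**Figure D3:**
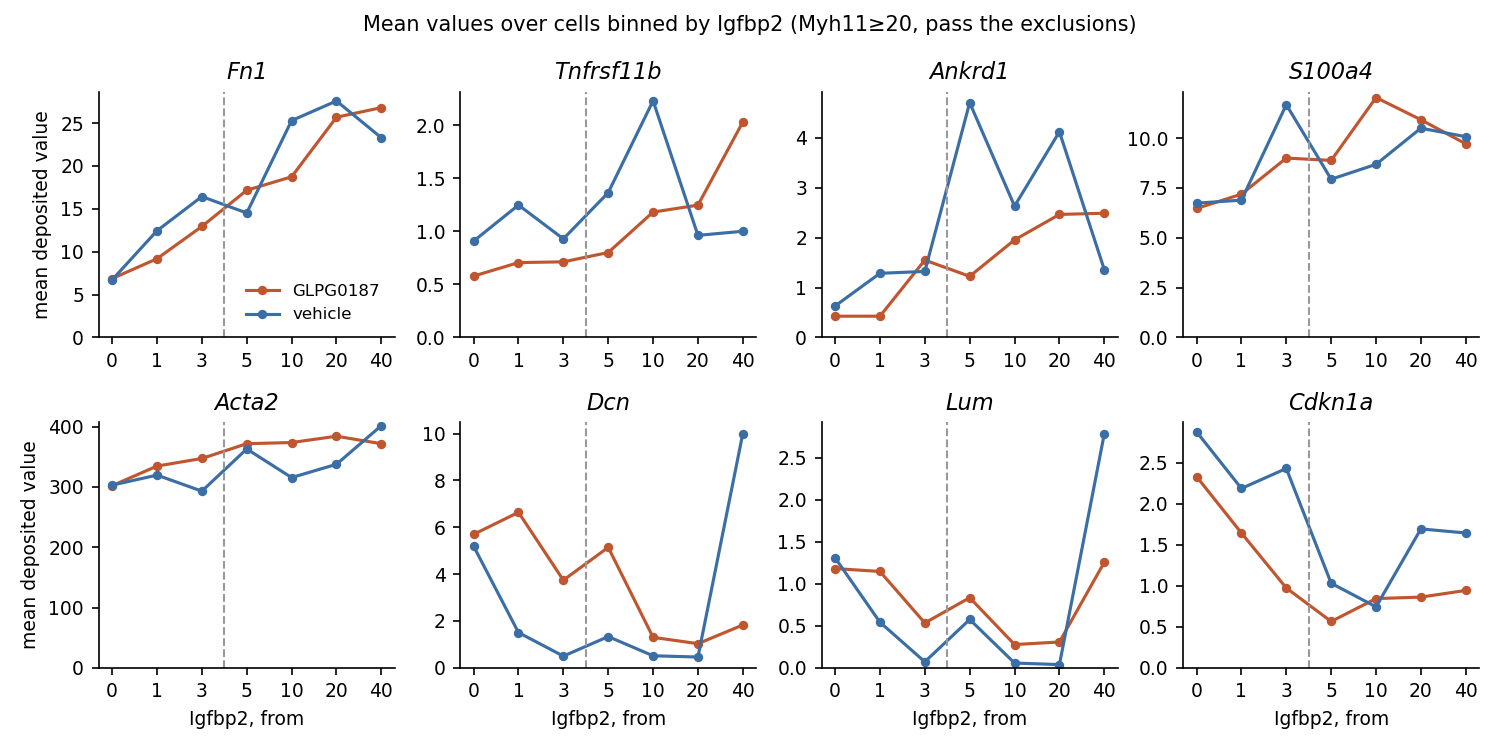
Mean deposited value of 8 genes (y) in Myh11-positive cells that meet the exclusions, binned by Igfbp2 (x, the lowest value of each bin; dashed line, the minimum of 5). Fn1 is already above its lowest value in bins under 5, and the last vehicle bin holds 14 cells.

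Several proteoglycan genes were lower in the Igfbp2-high cells. Of 11 measured proteoglycan and hyaluronan genes, Acan was higher and 6 were lower in both libraries (Dcn, Lum, Ogn, Fmod, Aspn and Cd44), with a list median of -0.78 and -0.67 against 0.01 and -0.00 over all genes. Dcn, the gene of decorin, averaged 2.52 and 1.98 against 6.75 and 4.64. Its log2 ratio was -1.44 and -1.24 over all others and -1.21 and -0.93 over the Igfbp2-low cells. By sex the Dcn ratio over all others was -0.02 (Xist-only) and -2.08 (Y-only) with GLPG0187, and -2.27 and -0.87 with vehicle. In Xist-only cells of the GLPG0187 library Dcn averaged 5.32 in the Igfbp2-high and 2.98 in the Igfbp2-low cells, and Lum 1.29 and 0.671, so both were higher there. Lum, which encodes lumican, averaged 0.590 and 0.565 against 1.67 and 1.57. Aspn, which encodes asporin, averaged 0.922 and 0.722 against 2.01 and 1.66. Bgn, which encodes biglycan, averaged 59.8 and 62.5 against 49.9 and 52.6, a ratio of 0.24 and 0.23. Prelp, which encodes prolargin, stood at -0.56 and -0.52, short of 1.5-fold.

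Dcn and Lum also belong to the fibroblast markers, of which 4 of 7 measured were lower (Pdgfra, Dcn, Lum and Dpt). Over all genes 1.49% were lower in both libraries. The part of RNA from fibroblasts, whose Dcn averaged over 200 in cells with Myh11 below 5 (209.8 and 210.7), was not tested. Single cells weighed on the vehicle values: 1 Igfbp2-high cell held 37.9% of the summed Dcn and 1 held 55.7% of the summed Lum.

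The modulated smooth muscle list moved in both directions. Of its 12 measured genes, Fn1 and Tnfrsf11b were higher, and Lum, Dcn and Mmp3 were lower, with a median of 0.34 and 0.16. Tnfrsf11b, which encodes osteoprotegerin, averaged 1.19 and 1.5 against 0.658 and 0.904, a log2 ratio of 0.83 and 0.72. Over the Igfbp2-low cells Tnfrsf11b was not 1.5-fold higher in both libraries. Its mean was 2.15 and 3.16 in cells with Myh11 of 5 to 19, and 1.49 and 2.12 in those with Myh11 below 5. Its level was therefore not confined to the Igfbp2-high cells. Mmp3, a matrix metalloproteinase gene, averaged 0.257 and 0.259 against 0.670 and 0.768. Klf4, a transcription factor of the switch away from the contractile state, averaged 0.623 and 0.824 against 1.67 and 1.28, a ratio of -1.44 and -0.64. Of the 18 contractile genes measured, 0 were higher and Des alone was lower, at -1.04 and -1.06. Over all genes 0.832% were higher and 1.49% lower in both libraries. At that background the contractile counts are no result about their list. Over the Igfbp2-low cells, a comparison without the excluded cells, Des stood at -0.27 and 0.29.

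Cdkn1a, the gene of the cell cycle inhibitor p21, averaged 0.772 and 1.18 in the Igfbp2-high cells against 2.06 and 2.65 in the others, a log2 ratio of -1.43 and -1.18. Trp53inp1, a p53 target, had ratios of -0.72 and -0.69. Both kept a 1.5-fold difference over the Igfbp2-low cells, and they were the 2 lower genes of 7 measured in the senescence and p53 list. Of 15 immediate early genes, Zfp36 was 1.5-fold lower in both libraries and 14 did not reach that size in both. The median of this list was -0.70 and -0.24. Over all genes 1.49% were lower in both libraries.

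Of 4 measured IGF ligand and receptor genes Igf1 was lower over all others, and of 3 measured IGF binding protein genes Igfbp5 was. Over all genes 1.49% were lower in both libraries. Igfbp5 averaged 0.347 and 0.259 against 0.651 and 0.587, a log2 ratio of -0.92 and -1.17. Over the Igfbp2-low cells the ratio was -0.95 and -0.52, short of 1.5-fold in the vehicle library. Igf1, the ligand, was rare, with means of 0.0336 and 0.0556 against 0.126 and 0.116. Its summed value was too low for it to be measured against the Igfbp2-low cells. Igf1r, the receptor gene, stood at -0.13 and -0.09. Igfbp7, a related binding protein, averaged 130 and 128 against 99.9 and 102, and Htra1, a protease that can cleave IGF binding proteins, 7.49 and 8.12 against 4.98 and 5.66. Of 9 IGF and PI3K signalling genes, 0 differed by 1.5-fold in both libraries.

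Of 11 measured integrin genes and 15 focal adhesion genes, 0 differed by 1.5-fold in both libraries, where 0.832% of all genes were higher and 1.49% lower. At that background a count of 0 in lists of this size is no result about them, and the same holds for the 9 signalling genes above and the collagen genes below. Itgav, the alpha-v subunit that GLPG0187 targets, averaged 1.16 and 1.11 in the Igfbp2-high cells against 1.10 and 1.08. Itgb3, which pairs with it, averaged 0.537 and 0.546 against 0.498 and 0.463. Their list medians were 0.06 and 0.03 for integrins and 0.03 and -0.04 for focal adhesion genes. The 14 measured fibrillar collagen and processing genes likewise had 0 differences of that size. Fbln1, a fibulin of elastic fibres, was the 1 of 11 elastic fibre genes to be lower, at -1.56 and -2.02.

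The 12 named lower genes included Psd, Cpxm2, Prune2, Gpc3, Fbln1, Kcnj15, Zdhhc2 and 1500015O10Rik. Of these 8, 6 were above 0 in under 10% of the Igfbp2-high cells of both libraries. Rgs5, a marker of pericytes and of a smooth muscle subset, averaged 0.336 and 0.472 against 1.73 and 1.37. In the vehicle library 1 cell held 68.6% of its sum. Apoe, the apolipoprotein gene, averaged 1.27 and 2.17 against 6.85 and 6.17, a ratio of -2.45 and -1.52 that was -1.44 and -0.68 over the Igfbp2-low cells. Cd74, the class II invariant chain, showed the strongest dependence on the comparison: -3.06 and -2.20 over all others and -0.92 and -0.57 over the Igfbp2-low cells. All 4 measured MHC class II genes were lower over all others and 0 of 2 measured ones over the Igfbp2-low cells. Over all genes the shares that were lower were 1.49% and 0.792% in these 2 comparisons. Lum was at 0.042 in Xist-only cells of the GLPG0187 library.

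**Figure D4:**
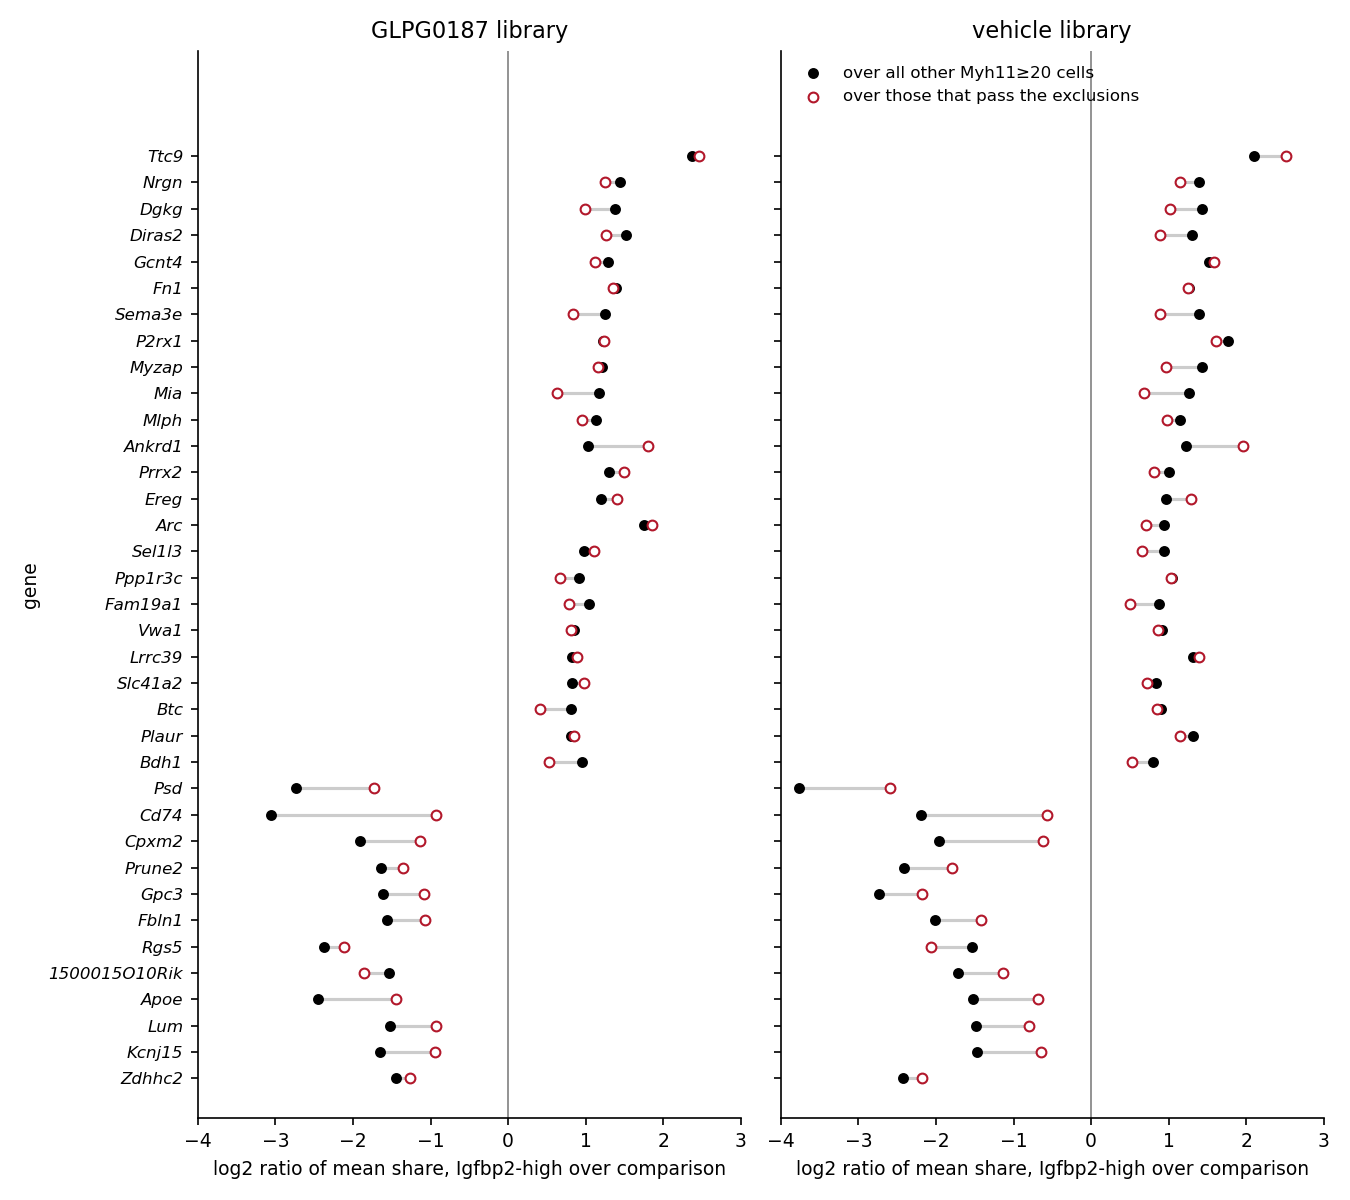
Log2 ratio (x) of the 24 named higher and 12 named lower genes (y) in each library, over all other Myh11-positive cells (filled) and over Igfbp2-low cells that meet the exclusions (open). Cd74 moves from -3.06 to -0.92 in the GLPG0187 library, while Fn1 hardly moves.

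Between treatments, the Igfbp2-high cells of the GLPG0187 library differed from those of the vehicle library by 1.5-fold or more in 167 genes that were higher (1.94%) and 307 that were lower (3.57%), of 8609 with a summed value of at least 50. In the Igfbp2-low cells of the same libraries 158 of 10330 genes were higher (1.53%) and 300 lower (2.90%). The number of cells differed, 268 against 108, and with 1 library each the treatment and the preparation cannot be told apart. At a summed value of at least 200 the counts in the Igfbp2-high cells were 26 and 37. Fn1 stood at -0.08 and Itgav at 0.06.

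Of 10 measured glucocorticoid and circadian genes, Nr1d1 and Zbtb16 were higher and Per1 was lower in the GLPG0187 library, with a list median of 0.01. Over all genes 1.94% were higher and 3.57% lower. The other 7 genes of the list lay between -0.52 (Arntl) and 0.18 (Dbp). Nr1d1, a repressor of the circadian clock, averaged 1.41 with GLPG0187 and 0.481 with vehicle, a log2 ratio of 1.55, with 1.10 in the Igfbp2-low cells. Per1, another clock gene, averaged 0.160 and 0.407, a ratio of -1.34, with -0.81 in the Igfbp2-low cells. Zbtb16, a glucocorticoid-induced transcription factor, stood at 0.93 in the Igfbp2-high and 1.12 in the Igfbp2-low cells. Sgk1, a glucocorticoid-induced kinase outside that list, stood at -1.24 in the first and -0.92 in the second, but among Igfbp2-high cells the Y-only ratio was -1.46 and the Xist-only ratio -0.17.

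Some genes of TGF-beta, YAP and BMP responses were lower in the GLPG0187 library. Ctgf, which encodes connective tissue growth factor, averaged 32.4 and 48.5 in the Igfbp2-high cells, a log2 ratio of -0.58 that fell just short of 1.5-fold, with -0.88 in the Igfbp2-low cells. Ankrd1 averaged 1.91 and 3.45, a ratio of -0.85 with -0.70 in the Igfbp2-low cells. Among Igfbp2-high cells its ratio was -3.32 in Xist-only ones and -0.55, short of 1.5-fold, in Y-only ones. With vehicle 1 Igfbp2-high cell held 23.6% of the summed Ankrd1. Id1, a BMP target, averaged 2.62 and 6.02, a ratio of -1.19 with -0.71. Among Y-only Igfbp2-high cells the Id1 ratio was -1.5, while Xist-only ones had -0.10. Of 9 measured TGF-beta and YAP response genes 0 were higher and 2 lower (Ankrd1 and Thbs1), with a median of -0.35, where 3.57% of all genes were lower. Thbs1 stood at -1.14 in the Igfbp2-high and 0.91 in the Igfbp2-low cells, and 1 cell held 48.1% of its vehicle sum in the Igfbp2-high cells. In the Igfbp2-low cells 2 of 10 measured genes of the same list were higher and 3 lower, with a median of -0.36. The medians over all genes were -0.03 and -0.05. Of 8 measured BMP and GDF pathway genes, 0 were higher and 2 lower (Bmp2 and Id1), with a median of -0.23. In the Igfbp2-low cells 0 of 10 were higher and 2 lower, with a median of 0.04. Over all genes 1.53% were higher and 2.90% lower in the Igfbp2-low cells.

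Acan averaged 1.42 with GLPG0187 and 2.54 with vehicle, a log2 ratio of -0.83, with -0.57 in the Igfbp2-low cells. It was above 0 in 57.1% and 69.4% of the Igfbp2-high cells. Lgals3, Cd109 and S100a4 stood at 0.56, 0.20 and 0.21. Of the 3 measured MHC class II genes, Cd74 and H2-Ab1 were higher in the GLPG0187 library, at 1.09 and 1.16, with 1.45 and 1.04 in the Igfbp2-low cells. Of 6 interferon response genes, Isg15, Bst2 and Ifitm3 were higher, at 0.62, 0.96 and 0.65. In the Igfbp2-low cells 4 of 10 measured genes of that list were higher. Its median was 0.47 in the Igfbp2-high and 0.48 in the Igfbp2-low cells, so it moved alike in both. Over all genes 1.94% were higher in the Igfbp2-high and 1.53% in the Igfbp2-low cells.

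Most of the other named genes were rare. Tfip11, a splicing factor, had a summed value of 53 in 268 cells of the GLPG0187 library and 6 in 108 cells of the vehicle library, a ratio of 1.74. Bmp3, Stard8, Smoc2, Lepr, Shmt2 and Gpc3 had summed values of 7 to 11 in the vehicle library. Socs3, a cytokine signalling inhibitor, stood at 1.33 with 1.25 in the Igfbp2-low cells. Tob2, an antiproliferative gene, averaged 0.739 and 1.76, and Irs2, an adaptor of insulin and IGF receptors, 0.422 and 0.935, ratios of -1.25 and -1.14 with -0.54 and -0.52 in the Igfbp2-low cells. Lpl, which encodes lipoprotein lipase, stood at -1.23. Of the Lpl sum with vehicle 1 cell held 46.4%, and without the highest cell of each group the ratio was -0.45. The remaining named lower genes were Arrdc3, Dcp2, Vps33a, Scrn2, Enox2 and Nr4a2, and the remaining higher ones Vwc2 and Cytl1.

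**Figure D5:**
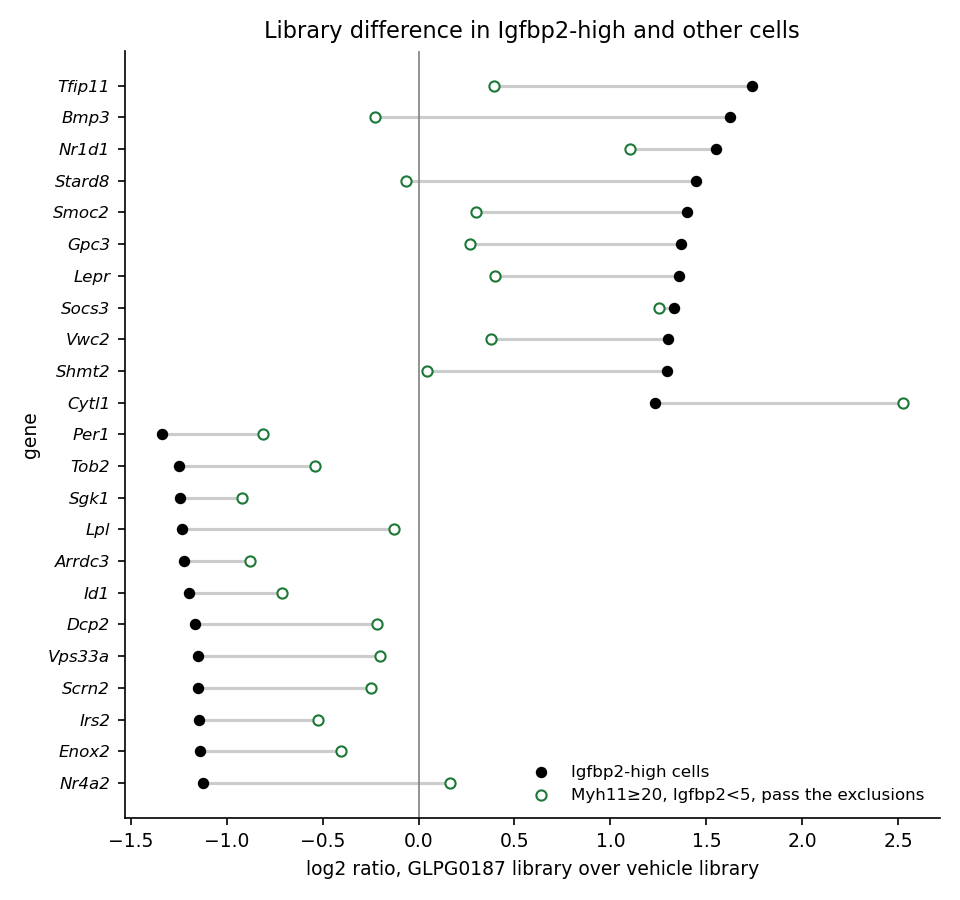
Log2 ratio of the GLPG0187 library over the vehicle library (x) for the 23 named genes (y) in Igfbp2-high cells (filled) and Igfbp2-low cells (open). Nr1d1 and Socs3 are high in both kinds of cell. In the Igfbp2-low cells Bmp3, Stard8 and Nr4a2 lie at -0.22, -0.06 and 0.17, all short of 1.5-fold.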

How the data were processed

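In all, 2 droplet single-cell libraries (3' chemistry, per the labels' protocols) were used, 1 per treatment. Per the submitters' processing notes the tools were Cell Ranger and Seurat with build mm10; their versions and settings are not given in the sources used here. Each deposited value is a whole number for 1 gene in 1 cell. It is treated as a score on a depth-corrected scale, not as a UMI count, because the deposited totals per cell lie between 12135 and 16719 in the GLPG0187 library and between 12078 and 16187 in the vehicle library. No count model was fitted, and sequencing depth is unknown.

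Values were summed per group of cells, divided by the group's total, and compared as log2 ratios (pseudocount 0.5) for genes with a summed value of at least 50, leaving out the 8 genes of the cell rule. A gene counted as different at 1.5-fold, in both libraries for comparisons of cells. Named genes were above 0 in at least 10% of either group, ranked by the smaller ratio of the libraries, with 25 higher and 12 lower. Between treatments they had the same direction in Xist-only and Y-only cells, with 12 each way. A few genes, among them named ones, are not reported here. The remaining genes are quoted from lists. The members and lists were chosen with earlier results of these data known. The macrophage gate took cells with a C1q sum of at least 5 and Myh11 below 5, and the endothelial gate a Pecam1 and Cdh5 sum of at least 5. Doublets were called with Scrublet in scanpy 1.11.5 (48 and 16 cells) and kept. The procedure was tested on simulated data. Gene positions came from GENCODE vM21 and promoter windows from RefSeq (GRCm38.p6). Python 3.11.15, numpy 2.4.6, pandas 2.3.3, scipy 1.17.1 and matplotlib 3.10.9 were used.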

Additional observations from a re-analysis of the deposited data

Results flagged for a closer look

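Thbs1, the thrombospondin-1 gene, differed in opposite directions in the 2 libraries: the log2 ratio of Igfbp2-high over other Myh11-positive cells was -0.69 with GLPG0187 and 1.04 with vehicle. Its ratio of GLPG0187 over vehicle was -1.14 in Igfbp2-high cells and 0.91 in Igfbp2-low cells. Thbs1 was above 0 in 32 and 14 Igfbp2-high cells, and 1 cell held 48.1% of the vehicle sum. For Ccnd1, the cyclin D1 gene, the ratio of GLPG0187 over vehicle was -0.60 in Igfbp2-high and 0.68 in Igfbp2-low cells, on summed values of 33 and 20 in the Igfbp2-high cells. These 3 pairs of opposite 1.5-fold differences came from 371 listed or named genes, and none of the differences between directions was tested.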

How the results depend on the processing

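The share of Igfbp2-high cells (17.7% and 17.7%) became 22.5% and 22.3% at an Igfbp2 of at least 3, 12.1% and 12.3% at 10, 24.8% and 24.6% without exclusions, 26.9% and 26.9% of cells that met them, 9.20% and 10.5% of Xist-only and 21.4% and 22.1% of Y-only cells. The difference between treatments stayed inside its interval under each alternative. Genes higher in Igfbp2-high cells (80) were 47 in Y-only cells, 1205 with no filter on low sums and 20 at a sum of 200. Genes lower (143) were 87 in Y-only cells, 69 against Igfbp2-low cells, 85 against those with Igfbp2 at 0, 588 with no filter and 57 at a sum of 200. GLPG0187 over vehicle gave 1350 higher and 2259 lower genes with no filter, 26 and 37 at a sum of 200, and 101 lower in Xist-only cells, of 2495 measured. Of the 23 named treatment ratios 6 moved by over 0.32 in Y-only and 22 in Xist-only cells; Sgk1, Arrdc3, Id1 and Irs2 were at -0.17, -0.06, -0.10 and -0.32 in Xist-only cells, and Cytl1 at 0.14 and 0.16 in the sexes. Reversed ratios in Xist-only cells were Ankrd1 at -1.61 and Lum at 0.042 (GLPG0187 library) and Arc at -0.79 and Bdh1 at -2.59 (vehicle library), where S100a4, at 0.44 in all cells, was at -0.27; Cd74 was at 0.47 in the vehicle library against cells with Igfbp2 at 0. The cause was not tested. Leaving out each gene's highest cell, and the shares by sex at other Igfbp2 minimums, were added after seeing the data. The ratios of the 24 higher and 12 lower named genes and of 4 markers, taken in each library, made 80 ratios. These are not the 80 genes counted as higher. Of these ratios of Igfbp2-high over other cells, 21 stayed within 0.32 in Xist-only, 62 in Y-only and 45 against Igfbp2-low cells. No paired analysis was possible because each treatment was 1 library.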

Other observations

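Igfbp2 was also high in cells outside the rule. With Myh11 of at least 20, 108 cells with GLPG0187 and 42 with vehicle had an Igfbp2 of at least 5 but failed an exclusion, 106 and 42 of them through Tnnt2. These cells had a mean Igfbp2 of 34.3 and 25.6 and a mean Fn1 of 17.1 and 25.2. Among cells with Myh11 of 5 to 19, 17.01% and 21.0% (41 of 241 and 42 of 200) had an Igfbp2 of at least 5, against 0.379% and 0.883% of cells with Myh11 below 5.

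In the vehicle library 1 Igfbp2-high cell held a Dct value of 186 and a Tyrp1 value of 15, genes of pigment cells, and no other Igfbp2-high cell held either. Spp1, which encodes osteopontin, was above 0 in 10 Igfbp2-high cells of the GLPG0187 library, where 1 cell held 70.8% of the sum, and in 23 of the vehicle library.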
